A study of Mus musculus with 4 samples.

Results

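The genes described here lie in and around the major histocompatibility complex (MHC) of the mouse and are not the antigen-presentation genes for which that stretch is known. They were taken by position. A probe belongs to the set if the array's annotation places it on chromosome 17 between 33000000 and 36500000 (mm8 build) and its listed name does not begin with H2-, Psm, Tap, Tnf, Lt, C2, C4, Cf, Cyp, Hsp, Rp, Slc, Trim, Abc or Ubd. That gave 177 probes with 126 names, of 41174 probes with 27745 names on the array. The interval held 273 probes in all, and 96 of them were left out by name. Of the 177 probes, 119 with 92 names passed the filter on dim probes (a clear signal over background on 2 or more of the 4 arrays) and could be tested, and the remaining 58 are counted but carry no comparison. The set was drawn up to be read beside a fall of the MHC class II transcripts in the same cells, as a check on whether neighbouring genes moved too. The rule used no measured value. By current symbol, 2 probes fall outside the label, listed as EG630499 and now named H2-K2, a class I gene. Probes without a gene name could not be checked in this way. Some of them lie close to class I or other genes left out by name, so the set may hold further probes of such genes.

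The samples were cells freshly taken from the small bowel of IKKb(EE)IEC mice and of their wild-type (WT) littermates, 2 biological replicates per genotype, with 1 array each. IKKb(EE) is a form of the kinase IKKb made constantly active by exchange of the serines in its activation loop for glutamate, and IKKb switches on the transcription factor NF-kB. The suffix IEC stands for the intestinal epithelial cells in which the active kinase was present. The sources used here do not give the promoter that drives it, the age, sex and strain of the mice, the MHC haplotype of either genotype or how many mice made up a sample. The WT samples carried no active kinase, and no agent was given to either genotype as far as the labels say.

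The MHC is among the most gene-dense stretches of the mammalian genome. Its class I genes (H2-K1, H2-D1) present peptides from inside the cell, and its class II genes (H2-Aa, H2-Ab1, H2-Eb1) present peptides taken up from outside, with H2-DMa, H2-DMb1 and H2-DMb2 as the chaperones that load them. Class II transcription needs the coactivator CIITA, which is recruited to an enhanceosome on the W, X and Y boxes of each promoter, so that the class II genes are switched together. Between and around them lie genes with unrelated work, among them the bromodomain protein Brd2, the Polycomb protein Ring1, butyrophilin-like genes, splicing and translation factors and the class III inflammatory genes. MHC haplotypes differ in coding sequence and in which genes are intact. A probe designed on one haplotype can therefore read another with less signal. How many genes of the interval a difference in haplotype would reach is not known here. Whether the genotypes differed in haplotype was not tested.

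Promoters of both kinds of neighbour are shown because the class II genes fell together and no tested interval gene within 250 kb of them passed the test in that direction. Each run is 250 bases before to 50 bases after a RefSeq start site of build GRCm38.p6, 5′ to 3′ on the gene's strand, with windows at chr17:34152941-34153240 (plus strand) for H2-DMb1, chr17:34305617-34305916 (plus strand) for H2-Eb1, chr17:34119851-34120150 (minus strand) for Brd2 and chr17:34376882-34377181 (plus strand) for Btnl1. Capitals mark matches on either strand to an X box core, CTNGNAAC, and to the Y box core, GATTGG. The letters of the X box core were chosen after these promoters had been read.
H2-DMb1: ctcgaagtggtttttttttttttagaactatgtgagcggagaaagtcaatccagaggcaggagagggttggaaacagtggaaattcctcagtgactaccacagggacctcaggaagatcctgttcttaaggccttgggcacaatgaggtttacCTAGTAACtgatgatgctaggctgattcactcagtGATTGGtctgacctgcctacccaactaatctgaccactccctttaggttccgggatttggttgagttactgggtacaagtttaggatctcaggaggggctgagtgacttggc
H2-Eb1: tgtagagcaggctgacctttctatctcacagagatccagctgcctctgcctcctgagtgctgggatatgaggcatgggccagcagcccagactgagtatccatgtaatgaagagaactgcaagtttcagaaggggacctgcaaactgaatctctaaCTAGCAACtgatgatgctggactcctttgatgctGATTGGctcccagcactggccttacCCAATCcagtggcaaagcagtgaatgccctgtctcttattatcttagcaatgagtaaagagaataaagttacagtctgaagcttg
Brd2: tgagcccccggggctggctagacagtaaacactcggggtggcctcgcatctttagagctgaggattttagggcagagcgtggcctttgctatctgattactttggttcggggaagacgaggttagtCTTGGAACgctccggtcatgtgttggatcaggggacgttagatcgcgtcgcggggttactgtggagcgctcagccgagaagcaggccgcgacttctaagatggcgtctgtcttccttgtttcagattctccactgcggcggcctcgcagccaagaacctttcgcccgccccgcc
Btnl1: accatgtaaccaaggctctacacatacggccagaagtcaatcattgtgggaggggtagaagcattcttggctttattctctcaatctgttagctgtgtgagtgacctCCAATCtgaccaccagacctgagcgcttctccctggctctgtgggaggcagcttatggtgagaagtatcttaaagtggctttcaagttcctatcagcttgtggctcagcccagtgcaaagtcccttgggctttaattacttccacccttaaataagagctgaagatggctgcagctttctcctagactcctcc

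The H2-DMb1 window held 1 X box core followed by 1 Y box core, and the H2-Eb1 window 1 X box core and 2 Y box cores. The Brd2 window shown held 1 X box core and no Y box core, the Btnl1 window 1 Y box core and no X box core. Windows 2 and 3 of Brd2, at other start sites, are not shown and held 0 cores of either kind. Among all 32851 promoter windows, 16.11% held the Y box core and 13.15% the X box core. Counted by gene, with any window of the gene, both cores were found in 3 of 79 interval genes with a window (3.8%), in 3 of 5 class II genes above background (H2-Aa, H2-DMb1 and H2-Eb1) and in 673 of 27025 genes overall (2.49%). The Y box core, with or without an X box core, was in all 5 of those class II genes, in 15 of 79 interval genes (19.0%) and in 18.2% of all genes. The kB motif, the NF-kB binding element, was in 17 of 79 interval genes (21.5%) and 2581 of all 27025 genes (9.55%), and in 0 of the 7 interval genes with a window and a probe past the threshold. These are matches of letters in a fixed window and do not show binding. The X box letters were chosen after the H2-DMb1 and H2-Eb1 windows had been read. The class II counts with that core are therefore not independent of the choice.

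The 2 IKKb(EE)IEC arrays correlated at 0.994 and the 2 WT arrays at 0.977 over the 16394 probes tested, against 0.936 to 0.946 between genotypes. Spots well above background made up 40.8% and 41.1% of the IKKb(EE)IEC arrays, against 34.3% and 36.0% of the WT arrays. All 4 arrays lay on 1 slide, with the genotypes at separate positions, so position and genotype cannot be told apart. The enterocyte marker Vil1 had a normalized log2 signal of 8.14 and 8.08 in IKKb(EE)IEC and 7.99 and 8.12 in WT. The 1 probe of Ikbkb, the gene of the active kinase, read 0.33 and 0.34 in IKKb(EE)IEC, against -0.72 and -0.27 in WT, a log2 difference of 0.83 ± 0.21 that missed the threshold (limma adjusted p = 0.057). Whether that probe also reads the transgene is unknown here.

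Of the 119 interval probes above background, 12 (10.1%) were higher in IKKb(EE)IEC and 2 (1.68%) were lower by limma's moderated test at an adjusted p below 0.05, and 105 did not pass. Over all 16394 probes tested, 8.19% were higher (1342) and 5.76% lower (944). The share higher thus lay near the background in this fit, and the share lower lay under it. In the authors' value table the share higher was 16.8% of interval probes against 8.42% of all probes, under normexp with negative differences raised 21.9% against 11.2%, and with no filter 3.95% against 1.81%, so that nearness to the background depends on the processing. On the rest of chromosome 17, 50 of 663 probes tested (7.54%) were higher and 18 (2.71%) lower. The median log2 difference, IKKb(EE)IEC minus WT, was 0.04 over the interval probes, -0.08 over all probes and -0.09 over the rest of chromosome 17. These counts rest on single arrays. With 1 array left out they ranged from 3 higher and 0 lower (without IKKb(EE)IEC replicate 1, and likewise without replicate 2) to 30 higher and 22 lower (without WT replicate 1), with 22 higher and 8 lower without WT replicate 2. D17H6S56E-5 and 1 probe of Aif1 passed without either IKKb(EE)IEC array, a second Aif1 probe and an unnamed probe beside D17H6S56E-5 passed without 1 of them, and the other 10 calls were lost without either.

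**Figure D1:**
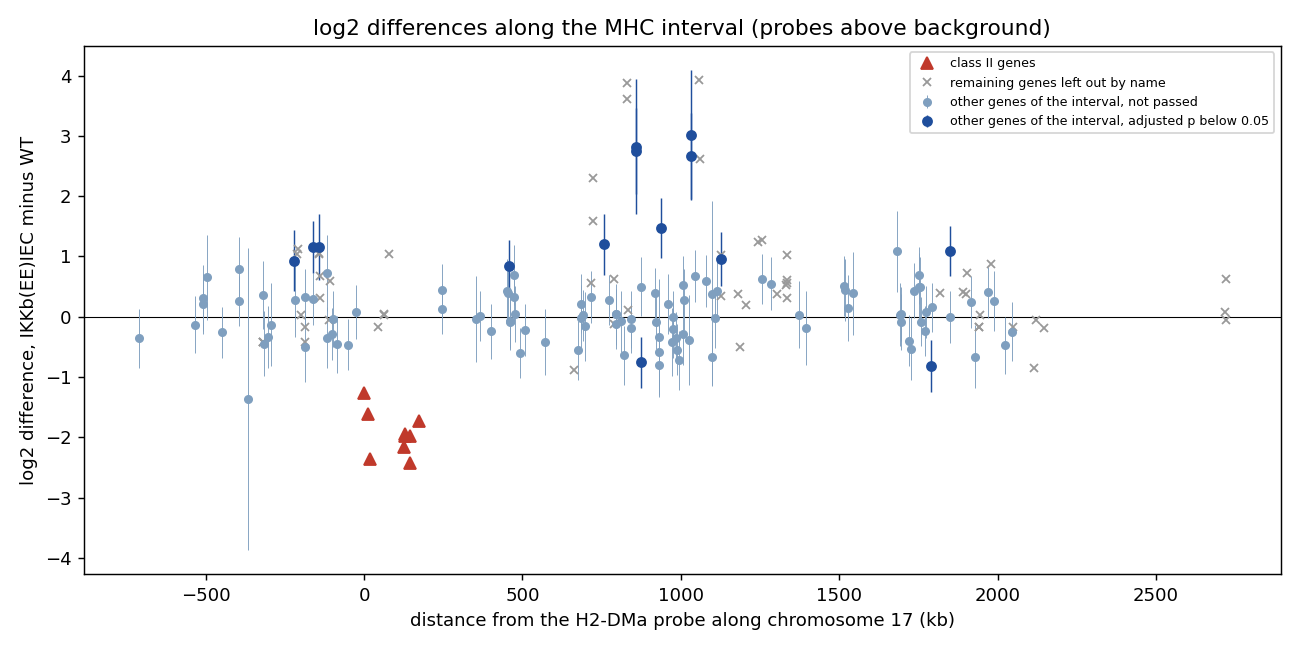
Log2 difference (IKKb(EE)IEC minus WT) of each probe above background in the MHC interval against its distance in kb from the H2-DMa probe, with 95% intervals for the 119 interval probes; triangles are the 9 class II probes and crosses the remaining genes left out by name. The class II probes lie between -2.43 and -1.26, while the interval probes on both sides are spread around 0 and the highest of them reaches 3.01.

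The class II genes themselves were lower. Of 16 class II probes, 9 probes of 6 genes were above background, and 9 of 9 were lower in IKKb(EE)IEC, with a median log2 difference of -1.97 and a range of -2.43 to -1.26. H2-DMb1 read 3.23 and 2.95 in IKKb(EE)IEC against 5.38 and 5.53 in WT (-2.36 ± 0.19, adjusted p = 0.003). H2-Eb1, at the other end of the block, read 1.25 and 1.22 in IKKb(EE)IEC against 2.90 and 3.02 in WT (-1.73 ± 0.17, adjusted p = 0.005). The smallest fall was that of H2-DMa, with -0.44 and -0.70 in IKKb(EE)IEC against 0.62 and 0.76 in WT (-1.26 ± 0.19, adjusted p = 0.016). H2-Ea, which is not transcribed in mice of several MHC haplotypes, b among them, was not well above background on any of the 4 arrays, and the probes of H2-Eb2, H2-Oa and H2-Ob did not reach the 2 arrays above background that the test asked for. Without IKKb(EE)IEC replicate 1 the probe of H2-DMa, 1 of H2-Ab1 and that of H2-Eb1 no longer passed, and without replicate 2 those of H2-DMa, H2-DMb2 and H2-Eb1, which left 6 of 9 in each case, all 9 still below 0.

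No tested interval probe beside this block was lower by the test. The outermost falling probes span 33747809 to 33923261 (mm8), a length of 175.5 kb. Antigen-processing genes left out by name lie between them. Of their 4 tested probes, 1 was higher and 0 lower, with log2 differences of 1.03 for the peptide transporter Tap2 (adjusted p = 0.021), 0.05 and 0.04 for the proteasome subunit Psmb8 and -0.17 for Psmb9. Within 250 kb of either end, 24 interval probes were spotted and 19 were above background. Of these 19, IKKb(EE)IEC had 3 higher (15.8%, against 8.19% of all probes) and 0 lower (against 5.76%) (limma, adjusted p below 0.05; 5 higher and 1 lower at an unadjusted p below 0.05), with a median log2 difference of 0.08 and a range of -0.50 to 1.16. The 95% interval of each of the 19 lay above -1.26, the smallest of the class II falls. Over the whole interval that was so for 116 of 119 probes, the exceptions being Angptl4 and both probes of Ly6g6d, none of which passed the test. The H2-DMa fall of -1.26 is itself an estimate, with a 95% interval of -1.72 to -0.80. Among the 19, the intervals of B3galt4, Col11a2, 1 probe of Ring1 and an unnamed probe reached below -0.80. The 1 interval probe that lies inside the block was not above background.

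Brd2, which binds acetylated histones, is the nearest tested gene on the proximal side, at 25.3 kb from the H2-DMa probe. It read 4.82 and 4.70 in IKKb(EE)IEC against 4.57 and 4.79 in WT, and the ranges of the genotypes overlapped. Its log2 difference was 0.08 ± 0.18 (95% interval -0.37 to 0.53, limma adjusted p = 0.770). On the distal side the nearest tested gene was Btnl1, at 70.0 kb from the H2-Eb1 probe, a butyrophilin-like gene of enterocytes whose protein acts on intraepithelial gamma-delta T cells. One Btnl1 probe read 3.28 and 3.27 in IKKb(EE)IEC against 3.17 and 3.13 in WT (0.13 ± 0.16, 95% interval -0.28 to 0.54). The other read 2.76 and 2.74 in IKKb(EE)IEC against 2.40 and 2.21 in WT (0.45 ± 0.17, 95% interval 0.01 to 0.88, adjusted p = 0.129). Both Btnl1 probes were a little brighter in IKKb(EE)IEC without passing the threshold, and the interval of each excludes a fall of the size seen in class II.

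Further out on the proximal side, an unnamed probe at 51.9 kb had a log2 difference of -0.46 with a 95% interval below 0 (-0.88 to -0.04, adjusted p = 0.114), and it was the 1 probe near the block that was lower at an unadjusted p below 0.05. Beyond it stood Col11a2, a collagen XI chain, with a log2 difference of -0.46 (95% interval -0.93 to 0.01), and Rxrb, the retinoid X receptor beta, with -0.29 and -0.04 on its 2 probes. Ring1, a Polycomb ubiquitin ligase, gave 0.73 on 1 probe and -0.34 on the other. B3galt4, a galactosyltransferase of ganglioside synthesis, had the lowest value among these neighbours, at -0.50 (95% interval -1.08 to 0.09). None of these genes passed the test. At 221.8 kb from the block lay Daxx, a chaperone of histone H3.3, which read 3.59 and 3.56 in IKKb(EE)IEC against 2.85 and 2.44 in WT and was higher (0.93 ± 0.20, adjusted p = 0.042). On the distal side Btnl7-ps, a pseudogene of the butyrophilin-like family, gave -0.24 (95% interval -0.69 to 0.21), so that the 3 butyrophilin-like probes had 0 calls in either direction (1 higher and 0 lower at an unadjusted p below 0.05) and a median of 0.13.

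**Figure D2:**
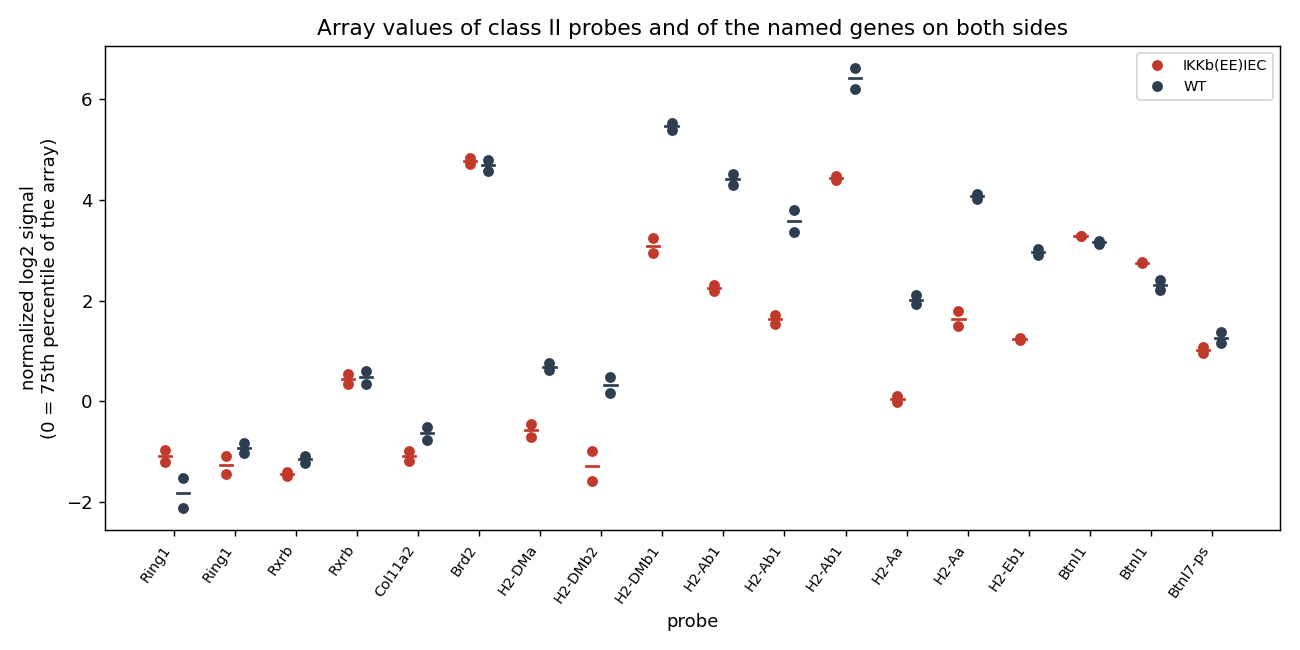
Normalized log2 signal (0 is the array's 75th percentile) of each of the 4 arrays for the class II probes and the named genes beside them, in order along chromosome 17; bars are genotype means. The class II probes stand lower in IKKb(EE)IEC, by 1.26 to 2.43, whereas the Brd2 and Btnl1 probes differ by 0.08 to 0.45.

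Some of the interval probes that were higher belong to a class I gene or lie close to one. H2-K2, a class I gene that entered under an older name, read 5.33 and 5.40 in IKKb(EE)IEC against 4.29 and 4.12 in WT on 1 probe (1.16 ± 0.17, adjusted p = 0.017). Its second probe, 479 bases away, read 6.75 and 6.93 in IKKb(EE)IEC against 6.53 and 6.55 in WT and did not pass (0.30 ± 0.17, adjusted p = 0.255). An unnamed probe at 33606921 to 33607092 was higher by 1.16 ± 0.22 (adjusted p = 0.031), and the H2-K1 probe 295 bases from it by 1.06 ± 0.19 (adjusted p = 0.026). A further unnamed probe at 34875001 to 34875060 read 5.26 and 5.06 in IKKb(EE)IEC against 4.28 and 4.13 in WT (0.95 ± 0.18, adjusted p = 0.030). It lies 224 bases from an H2-D1 probe that was higher by 1.02 ± 0.17 (adjusted p = 0.023). Since class I genes resemble each other closely in sequence, it is uncertain which class I transcript the H2-K2 probes read. Both unnamed probes are listed on the opposite strand from their class I neighbour, and what they read is not known here. Thus 3 of the 12 interval probes that were higher are class I by symbol or stand within 300 bases of a class I probe that was higher too. Among all probes left out by name other than class II, 16 of 57 tested were higher and 1 lower.

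Of the inflammatory and immune genes of the class III and class I regions, 15 of 25 probes were above background, 4 probes of 3 names were higher (26.7%, against 8.19% of all probes) and 0 were lower (against 5.76%) (limma; 7 higher and 2 lower at an unadjusted p below 0.05), and the median log2 difference was 0.43. Of the 4, 2 were not above background in WT and passed the filter through IKKb(EE)IEC. Aif1, also known as Iba1, is a calcium-binding protein of macrophages that binds actin. Its first probe, at 34779070 to 34779129, read 3.96 and 3.59 in IKKb(EE)IEC against 0.12 and 1.41 in WT, an 8.07-fold rise (3.01 ± 0.43, adjusted p = 0.016). Its second, at 34779608 to 34779853, read 1.35 and 1.11 in IKKb(EE)IEC against -1.81 and -1.07 in WT, where neither array had it well above background, so that it was at least 5.33-fold higher (2.67 ± 0.29, adjusted p = 0.006). "At least" here sets the mean signal of the brighter genotype against the lowest signal counted as well above background on each array of the other, or the probe's own where higher. Aif1 was the only one of 25 interval genes with more than 1 tested probe in which every tested probe passed. The WT arrays stood apart at the first probe, and its difference was 2.37 without WT replicate 1 and 3.66 without WT replicate 2, both past the threshold.

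The second gene of this kind is D17H6S56E-5, at 34605239 to 34605298, which the array's annotation describes as a proviral envelope protein, G7e. A gene of that description is not an inflammatory gene by function, although it stands on that list. It read 3.63 and 4.09 in IKKb(EE)IEC against 0.80 and 1.43 in WT, a 6.70-fold rise (2.75 ± 0.29, adjusted p = 0.006). An unnamed expressed-sequence probe 466 bases away, at 34605764 to 34605823, read 3.24 and 4.01 in IKKb(EE)IEC against 0.21 and 1.40 in WT (2.82 ± 0.45, adjusted p = 0.020). Both probes separate the genotypes by more than the gap between arrays of either genotype. Whether they read this locus alone or also other proviral sequences is not known here. The value of the unnamed probe moved to 2.23 without WT replicate 1 and to 3.42 without WT replicate 2, and in a fit without IKKb(EE)IEC replicate 2 it no longer passed (2.44, adjusted p = 0.073).

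Ly6g6e, one of the Ly6 family of surface proteins, read -0.67 and -0.98 in IKKb(EE)IEC against -2.40 and -2.19 in WT, where it was not well above background, so that it was at least 1.43-fold higher (1.47 ± 0.20, adjusted p = 0.013). Its second probe was not above background. Its neighbour Ly6g6d read 3.92 and 3.70 in IKKb(EE)IEC against 4.39 and 4.82 in WT and did not pass (-0.79 ± 0.22, adjusted p = 0.065). Ier3, an early response gene that NF-kB is known to switch on, read -0.30 and -0.75 in IKKb(EE)IEC against -1.34 and -1.89 in WT and stood just outside the threshold (1.09 ± 0.27, adjusted p = 0.052). Neither WT array had it well above background, which gives at least 1.76-fold. Lst1, a leukocyte-specific transcript beside the Tnf locus, read 3.12 and 2.92 in IKKb(EE)IEC against 2.33 and 2.36 in WT (0.67 ± 0.17, adjusted p = 0.057). In both Ier3 and Lst1 the arrays of the genotypes did not overlap, but the differences did not pass at this number of arrays.

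**Figure D3:**
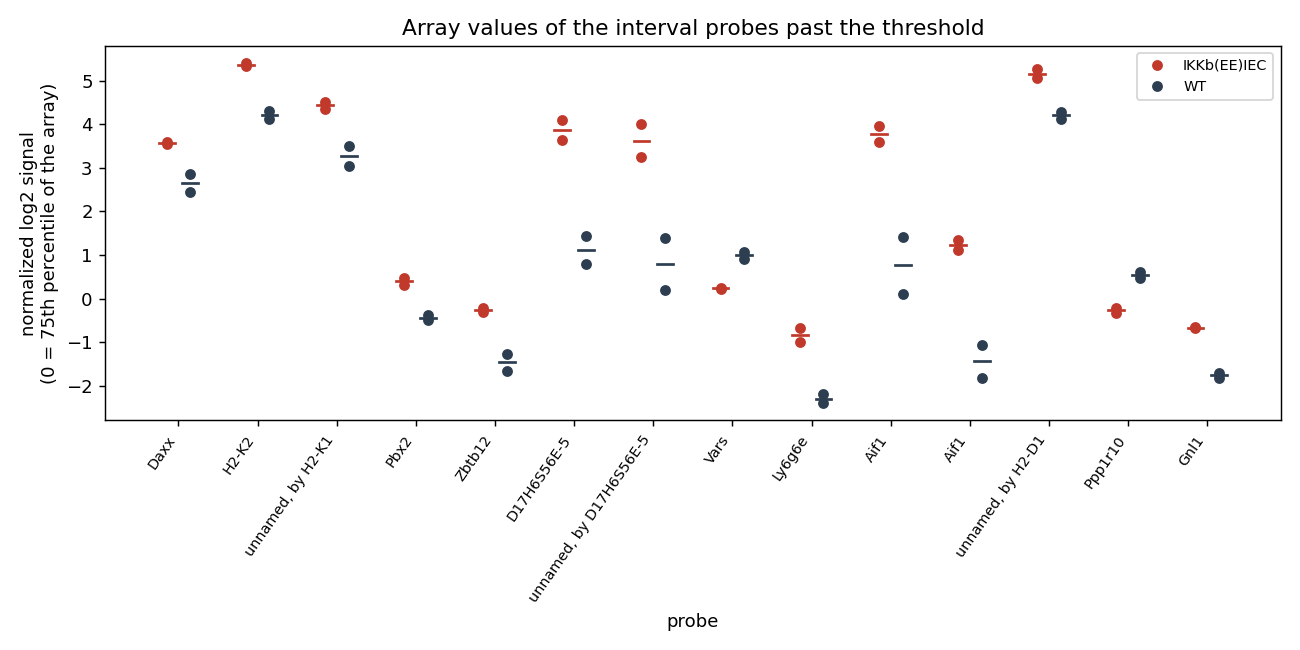
Normalized log2 signal (0 is the array's 75th percentile) on each of the 4 arrays for the 14 interval probes past the threshold, in order along chromosome 17, with IKKb(EE)IEC left of WT and bars for the means. The 12 higher probes differ by 0.83 to 3.01 and the 2 lower ones, Vars and Ppp1r10, by -0.76 and -0.81.

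Beside Aif1, 6 of 11 markers of macrophages and dendritic cells tested were higher and 0 were lower (1 lower at an unadjusted p below 0.05), taking the brightest probe of each gene. Over all probes tested, 8.19% were higher and 5.76% lower, which is the background for this and the following marker lists. Itgax differed by 1.89 and Ms4a7 by 3.03 on the log2 scale. Neither WT array had Adgre1, C1qa, C1qc, Cd68 or Fcgr1 well above background, so that these genes passed the filter only through the IKKb(EE)IEC arrays. Adgre1 was at least 3.88-fold, C1qa 1.67-fold, C1qc 17.4-fold and Fcgr1 9.89-fold higher in IKKb(EE)IEC. The 5 that did not pass were C1qb (-0.15), Cd68 (0.79), Cd74 (0.38), Ciita (-0.63, adjusted p = 0.070) and Csf1r (0.34). On the log2 scale the summed level of the list was 6.10 and 5.97 in IKKb(EE)IEC against 5.45 and 5.17 in WT. Cd74, which did not pass, weighed most in that sum, with 5.27 and 5.30 in IKKb(EE)IEC against 5.12 and 4.69 in WT. Of the T cell markers 0 of 6 passed (limma; 1 higher and 2 lower at an unadjusted p below 0.05), with a summed level of 4.05 and 4.06 in IKKb(EE)IEC against 4.33 and 4.40 in WT. The B cell list had 1 higher and 2 lower of 4 tested, the enterocyte list 1 and 2 of 6, the Paneth list 0 and 3 of 3, and the pancreas list 0 and 1 of 3. The pancreatic summed level was 4.78 and 4.94 in IKKb(EE)IEC against 8.83 and 7.64 in WT, with colipase (Clps) at -4.01 (adjusted p = 0.006). The 4 liver markers were not above background. The part of these cells in the values of Aif1 and Lst1 was not tested. In such bulk samples, more or fewer cells of a type and more or less RNA per cell cannot be told apart.

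Among transcription and chromatin genes, 16 of 21 probes were above background, 3 were higher (18.8%, against 8.19% of all probes), 0 were lower (against 5.76%) (4 higher and 0 lower at an unadjusted p below 0.05) and the median was 0.28. Besides Daxx these were Zbtb12 and Pbx2. Zbtb12, a BTB zinc finger protein, read -0.22 and -0.30 in IKKb(EE)IEC against -1.27 and -1.65 in WT, where it was not well above background, so that it was at least 2.10-fold higher (1.20 ± 0.20, adjusted p = 0.023). Pbx2, a homeodomain partner of Hox proteins, read 0.47 and 0.32 in IKKb(EE)IEC against -0.50 and -0.38 in WT (0.83 ± 0.17, adjusted p = 0.037). A second Pbx2 probe had the same sign and did not pass (0.40, adjusted p = 0.163). In each of these genes the lower IKKb(EE)IEC array stood above the higher WT array.

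Genes of RNA processing, translation and protein folding, the largest of the role lists with 31 of 39 probes above background, gave 1 probe higher (3.23%, against 8.19%), 2 lower (6.45%, against 5.76%) and a median of -0.01. Vars, the valyl-tRNA synthetase, read 0.22 and 0.25 in IKKb(EE)IEC against 0.91 and 1.07 in WT on the probe that fell (-0.76 ± 0.17, adjusted p = 0.044). Its other probe, 446 bases away, had the opposite sign (0.50, adjusted p = 0.132). Ppp1r10, a nuclear partner of protein phosphatase 1, read -0.22 and -0.32 in IKKb(EE)IEC against 0.62 and 0.47 in WT on the probe that fell (-0.81 ± 0.17, adjusted p = 0.039), and 0.15 was the difference on a second probe (adjusted p = 0.522). Gnl1, a GTP-binding protein, read -0.67 and -0.66 in IKKb(EE)IEC against -1.71 and -1.81 in WT on 1 probe, at least 1.60-fold higher (1.10 ± 0.17, adjusted p = 0.017). On the Gnl1 probe that starts 19 bases further on, the difference was -0.01 (adjusted p = 0.984). The 3 calls in this list thus each rest on 1 probe that a second probe of the gene did not share. Bag6, a chaperone of membrane proteins, showed the same spread without a call, with probes at -0.72, -0.28 and 0.52.

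The enzymes, lipid carriers and metabolic genes had 16 of 20 probes above background, with 0 higher, 0 lower (1 and 1 at an unadjusted p below 0.05) and a median of -0.08. The closest to the threshold were Atp6v1g2, a subunit of the vacuolar proton pump (-0.67 ± 0.18, adjusted p = 0.062, with 0.38 on a second probe), and Agpat1, which makes phosphatidic acid (0.70 ± 0.20, adjusted p = 0.070). Angptl4, a secreted inhibitor of lipoprotein lipase, read 3.38 and 4.62 in IKKb(EE)IEC against 3.82 and 6.91 in WT. Its arrays overlapped and its difference of -1.36 had a standard error of 1.01, so that a change of the size seen in class II was not detectable for this gene. The trafficking, cytoskeleton, adhesion and matrix genes had 11 of 25 probes above background, 0 higher, 0 lower (1 higher and 2 lower at an unadjusted p below 0.05) and a median of -0.09. Nearest the threshold were Rab11b, a GTPase of recycling endosomes (0.79 ± 0.22, adjusted p = 0.063), Prrt1 (-0.60 ± 0.17, adjusted p = 0.066) and Nrm, a protein of the inner nuclear membrane (-0.53 ± 0.21, adjusted p = 0.133). The 27 tested probes on no role list held the remaining 4 higher calls, the class I and expressed-sequence probes above.

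**Figure D4:**
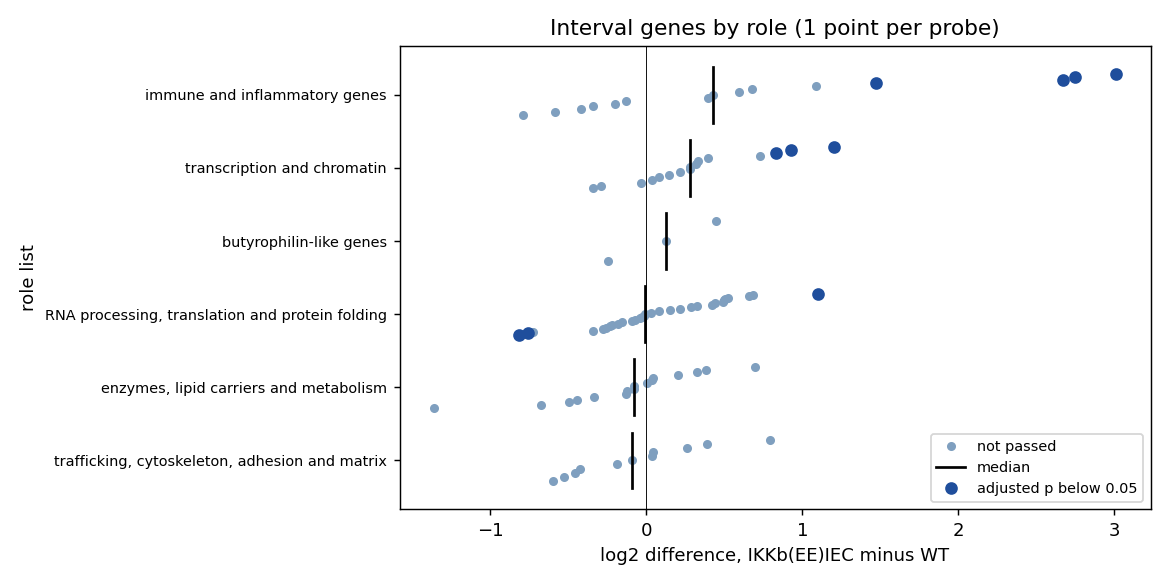
Log2 difference (IKKb(EE)IEC minus WT) of the interval probes above background by role list, with 1 point per probe, dark points past the threshold and a black line at each list's median. The medians run from -0.09 to 0.43, and the 3 highest points are the 2 Aif1 probes and D17H6S56E-5.

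Along the chromosome the calls were counted per 0.5 Mb, against 8.19% higher and 5.76% lower over all probes. The counts are small, and whether the calls were unevenly spread was not tested. From 33.0 to 33.5 Mb, 0 of 13 probes passed (1 higher and 0 lower at an unadjusted p below 0.05) and the median was -0.13. From 33.5 to 34.0 Mb, the stretch that holds the class II block, 3 of 16 were higher (18.8%), 0 were lower (5 higher and 1 lower at an unadjusted p below 0.05) and the median was 0.20. The next 0.5 Mb gave 1 higher of 20 (5.0%), with a median of 0.00. From 34.5 to 35.0 Mb, 7 of 39 were higher (17.9%) and 1 lower, again with a median of 0.00. These 7 include both Aif1 probes, and D17H6S56E-5 with the unnamed probe 466 bases from it, so they need not be 7 separate events. From 35.0 to 35.5 Mb, 0 of 16 passed (5 higher and 1 lower at an unadjusted p below 0.05) and the median was 0.27, and from 35.5 to 36.0 Mb, 1 of 15 was higher and 1 lower, with a median of 0.08. The last 0.5 Mb held 1 probe, not above background. The lowest of these medians was -0.13, against -1.97 for the class II probes.

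Probes of a gene often differed from each other. Of the 25 genes with more than 1 tested probe, 11 had probes of opposite sign (Atp6v1g2, Bag6, Ddx39b, Gnl1, Mrps18b, Neu1, Ppp1r10, Ring1, Stk19, Tubb5 and Vars). For Neu1, a lysosomal sialidase, the probes gave -0.13 and 0.04, and for Tubb5, a beta-tubulin, -0.09 and 0.05, so their signs differ around 0. For Atp6v1g2, Bag6, Gnl1, Ring1 and Vars the lowest and highest probes were over 1 log2 unit apart. The files do not say which exon a probe reads or whether strain variants lie under it, and the part of either in these disagreements was not tested.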

How the data were processed

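Total RNA of 4 samples, 2 IKKb(EE)IEC and 2 WT, was labelled with Cy3 and hybridised to Agilent 1-colour arrays, per the labels' protocols. Samples were grouped by their titles. The deposited spot intensities are background-subtracted processed signals, which per the file headers come from Feature Extraction 9.5.3.1, and in which no normalization between arrays is recorded. The authors' value table of 40913 probes holds linear intensities with column medians of 111.5 to 112, normalized in a way that the sources used here do not give; it served as an alternative, and its ranks followed the scanner values (Spearman 0.999 to 1.00). The flags used (control, outlier, well above background, saturated) come as deposited with the spots, per the file headers.

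The processed signal was put on the log2 scale and lowered by the 75th percentile of the array's non-control spots (94.6 and 107.8 in IKKb(EE)IEC, 60.3 and 66.1 in WT), and spots of a probe were averaged. Outlier spots were left out, which removed 12 probes, and saturated spots were kept. Each probe was fitted by itself with limma 3.58.1 in R 4.3.3, two-sided, with Benjamini-Hochberg adjustment over 16394 probes and a threshold of 0.05. The fit's prior SD was 0.205, with 3.61 prior degrees of freedom. Errors printed as ± are the fit's standard errors, with n = 2 per genotype. The fit was tested on simulated data. p-values measure the spread between these samples only, and precision is limited by having 4 arrays and, in dim probes, by the background.

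Names follow the RefSeq table of GRCm38.p6 for 24496 probes matched by accession, 1469 more were renamed by a unique synonym, and the rest kept the listed name. Positions (mm8) are the probe's own, as the files list them. Promoters come from RefSeq, build GRCm38.p6. H2-Ab1 has no window in that table.

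Members and gene lists were chosen with earlier results of these data known. Named are genes with a probe past the threshold, up to 3 per role list with the smallest p, genes with probes of opposite sign, and the class II genes. The genes beside the class II block, and Ier3, Lst1 and Ly6g6d, were chosen after their values were seen. Alternatives covered the scaling, the background correction, the authors' table, the filter, 1 probe per gene, a replicate block and each array left out.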

Additional observations from a re-analysis of the deposited data

How the results depend on the processing

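The fall of the class II probes kept its direction and its side of the threshold for 9 of 9 probes under the median shift, quantile normalization, raised normexp, the authors' table, the replicate block and without either WT array. It was 8 of 8 with probes well above background on all 4 arrays, 6 of 6 with 1 probe per gene, 9 of 16 with no filter, and 6 of 9 without either IKKb(EE)IEC array. Normexp as planned called 0 probes of any group by limma (98 higher and 116 lower of all probes at an unadjusted p below 0.05, class II 0 and 6, interval 3 and 0). A form with negative spot-minus-background differences raised to the array's lowest positive one was added after seeing the data, and calls returned under it. The interval counts, 12 higher and 2 lower, were 26 and 2 under it (all probes 1832 and 701), 20 and 2 in the authors' table (1372 and 909), 13 and 1 under the median shift (1788 and 831), 12 and 6 with probes above background on all 4 arrays (961 and 1318 of 12984), and 7 and 1 with no filter (745 and 413), where 177 probes were tested. The replicate block gave 13 higher and 1 lower (Vars lost), and 1497 and 911 over all probes. Equal replicate numbers were taken only to name the samples. The deviations of the replicate 1 arrays from their genotype means correlated at 0.112. With 2 arrays per genotype the second pair mirrors the first, so this value cannot decide whether the samples were paired. The 1 slide left no slide block to run. With 1 array left out, which assumes that the lone array of a genotype varies like the others, the interval counts ranged from 3 to 30 higher and from 0 to 22 lower, and those over all probes from 263 to 3646 higher and from 110 to 4221 lower. Of the 14 interval calls, 14 stayed under quantile normalization, 12 under the median shift, 11 in the authors' table, 10 under raised normexp, 13 under the block, 7 with no filter, 14 without either WT array and 3 without either IKKb(EE)IEC array.

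The interval median was -0.07 with no filter and between 0.00 and 0.12 otherwise. The median over all probes, -0.08, was -0.0258 under the median shift, -0.0459 under quantile normalization, -0.0506 and -0.0101 under normexp and raised normexp, -0.006 in the authors' table, -0.15 with the filter on all 4 arrays, -0.45 with no filter, -0.12 with 1 probe per gene, and -0.117 to -0.0378 with 1 array left out.

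The probes whose sign turned had not passed, and most lay near 0; the cause was not tested. Neu1 at 0.04 turned to -0.044 under normexp and -0.0304 under raised normexp (-0.0500 to 0.126 with 1 array left out), and Neu1 at -0.13 to 0.17 under raised normexp and 0.0217 in the authors' table. Stk19 at -0.02 turned to 0.0372 under the median shift and 0.0605 in the authors' table (-0.253 to 0.218 with 1 array left out), and Stk19 at 0.03 to -0.0569 under raised normexp (-0.0451 to 0.0995). Tubb5 at 0.05 turned to -0.00035 under normexp (-0.0712 to 0.162), and Tubb5 at -0.09 to 0.0055 under quantile normalization, 0.21 under raised normexp and 0.0773 in the authors' table (-0.24 to 0.0541). Mrps18b turned to -0.058 under raised normexp and -0.00019 in the authors' table (-0.0113 to 0.168). Atp6v1g2 at 0.38 turned to -0.0752 under normexp and -0.145 under raised normexp (-0.61 to 1.37). Gnl1 at -0.01 turned to 0.0486 under the median shift, 0.033 under normexp, 0.0327 under raised normexp and 0.0525 in the authors' table (-0.105 to 0.0933). Ddx39b at -0.03 turned to 0.0272 under the median shift, 0.016 under quantile normalization, 0.0128 under normexp and 0.0157 in the authors' table (-0.200 to 0.145).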
